A study of Mus musculus with 6 samples.

Results

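Chromosome 5 of the mouse carried 18266 of the 214414 accessible sites (peaks) that the authors listed in an ATAC-seq comparison of organoids from mouse non-small cell lung cancer that are resistant or sensitive to immunotherapy. They were chosen as every peak of the authors' deposited table that lies on this chromosome, and the chromosome was selected on the fold changes in this table, which were known to be low there, so every fold change given here describes the values that led to its choice. The study holds 3 libraries labelled resistant and 3 labelled sensitive. The labels give a single tissue term, NSCLC, and no line, clone, drug, strain, genotype, age or time, and they do not say whether each library had its own culture, so the authors' p-values rest on a spread between libraries that may be purely technical. Organoids are small bodies of tissue grown in culture from dissociated cells.

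In ATAC-seq a transposase cuts DNA where it is free of nucleosomes and adds sequencing adaptors there, so that open sites collect reads and appear as peaks. Promoters of active genes are open in many cell types, whereas distal sites, many of them enhancers, differ more between cell types. The count of a peak follows how open the site is, how many copies of that DNA the cells carry and how libraries are scaled to each other, and the deposited table does not separate these. Chromosome 5 of the mouse holds several gene families used in epithelia and inflammation, among them the CXC chemokines, the EGF family ligands, the tight junction genes Cldn3 and Cldn4, and the Oas antiviral enzymes.

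The authors' deposited table gives for each peak a mean normalized count over all libraries, a log2 fold change with its standard error, and an adjusted p from DESeq2. Its 6 columns of values per library carry names that match no sample label, so values per library are not given and each peak is described by the fold change and its error. A positive fold change is taken as higher in resistant organoids, as the table's title has it, and no other source gives the direction. A called peak is one with an adjusted p under 0.05, and a tested peak is one for which the table gives an adjusted p.

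Promoters of 5 of 5 general epithelial genes (Epcam, Cdh1, Krt8, Krt18 and Krt19) had a tested peak in the authors' deposited table, with mean counts between 87.2 and 785. Of 4 lung epithelial genes, Nkx2-1 had a mean count of 88.5 and Sftpb one of 108, and Napsa and Sftpc had no tested promoter peak. Of 3 haematopoietic genes Cd79a alone had one, at 17.6, beside 16.0 and 27.6 at the endothelial genes Cdh5 and Pecam1. The fibroblast genes Pdgfrb and Col1a1 had 28.1 and 55.0.

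The promoters of 6 genes on which the account below turns are shown first, as the 250 bases before the RefSeq start in GRCm38.p6, 5′ to 3′ on the strand of the gene. Cldn3, Cldn4, Hs3st1 and Sowahb were among the promoters that were lowest in resistant organoids. Pcolce and Emilin1 were the only promoters in the gene lists below that passed the adjusted p threshold as higher than their surroundings. Other list promoters also lay above their surroundings but did not pass. Capitals mark an AP-1 site (TGANTCA), the E-box CACCTG or a GC box (GGGCGG), searched on both strands.
Cldn3, chr5:134985964-134986213, plus strand: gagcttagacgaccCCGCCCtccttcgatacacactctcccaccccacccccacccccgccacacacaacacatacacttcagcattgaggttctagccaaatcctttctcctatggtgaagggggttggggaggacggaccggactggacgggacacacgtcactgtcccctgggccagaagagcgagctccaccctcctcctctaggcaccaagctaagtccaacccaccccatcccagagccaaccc
Cldn4, chr5:134946935-134947184, minus strand: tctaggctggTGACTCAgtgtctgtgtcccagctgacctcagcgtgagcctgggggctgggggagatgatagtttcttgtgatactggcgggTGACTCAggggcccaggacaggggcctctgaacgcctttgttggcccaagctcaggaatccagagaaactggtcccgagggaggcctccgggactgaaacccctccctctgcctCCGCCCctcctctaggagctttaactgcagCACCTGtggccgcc
Hs3st1, chr5:39644632-39644881, minus strand: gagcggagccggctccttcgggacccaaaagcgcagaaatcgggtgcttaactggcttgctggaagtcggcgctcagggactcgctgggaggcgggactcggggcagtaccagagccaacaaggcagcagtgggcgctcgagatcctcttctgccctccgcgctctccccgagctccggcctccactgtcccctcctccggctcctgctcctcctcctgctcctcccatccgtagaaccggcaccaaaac
Sowahb, chr5:93045023-93045272, minus strand: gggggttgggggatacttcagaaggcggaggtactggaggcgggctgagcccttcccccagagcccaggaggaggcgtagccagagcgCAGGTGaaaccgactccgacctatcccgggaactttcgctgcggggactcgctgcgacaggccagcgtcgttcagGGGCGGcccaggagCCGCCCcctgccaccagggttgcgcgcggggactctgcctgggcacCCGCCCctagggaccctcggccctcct
Pcolce, chr5:137611405-137611654, minus strand: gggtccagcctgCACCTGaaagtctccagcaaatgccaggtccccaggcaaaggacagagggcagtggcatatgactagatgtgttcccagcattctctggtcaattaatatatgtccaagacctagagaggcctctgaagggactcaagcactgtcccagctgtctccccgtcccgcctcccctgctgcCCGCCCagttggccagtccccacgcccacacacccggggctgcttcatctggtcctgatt
Emilin1, chr5:30913536-30913785, plus strand: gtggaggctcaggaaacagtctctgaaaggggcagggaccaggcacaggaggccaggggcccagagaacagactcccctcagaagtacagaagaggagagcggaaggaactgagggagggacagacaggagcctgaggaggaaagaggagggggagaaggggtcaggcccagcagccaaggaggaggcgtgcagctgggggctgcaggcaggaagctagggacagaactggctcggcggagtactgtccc
Counted from the start, the Cldn4 promoter held AP-1 sites beginning at -240 and -158, a GC box at -44 and the E-box at -14. The Sowahb promoter held the E-box at -162 and GC boxes at -87, -73 and -27. The Pcolce promoter held the E-box at -238 and a GC box at -60, and the Cldn3 promoter a GC box at -236. None of these letters was found in the 250 bases of Hs3st1 or Emilin1, which says nothing about sites outside them.

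Nearly the whole of chromosome 5 had lower normalized counts in resistant than in sensitive organoids. Among its 9869 tested peaks, which were 54.0% of all its peaks, the median log2 fold change in the authors' deposited table was -0.53, with quartiles of -0.75 and -0.32. That median is a resistant over sensitive ratio of 0.692. Over the whole table the median was -0.07, with quartiles of -0.40 and 0.29. A value below 0 was found in 9263 tested peaks of chromosome 5 (93.9%) and in 55.5% of all tested peaks. The 8397 peaks of chromosome 5 without an adjusted p, with a median count of 9.98, had a median of -0.48 and lay below 0 in 86.3%.

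The authors' deposited table called 1622 tested peaks of chromosome 5 lower in resistant organoids (16.4%) and 17 higher, beside 7.34% lower and 5.02% higher over all tested peaks. These counts come from the values by which the chromosome was picked. A change of at least 2-fold was seen in 755 of the lower and 7 of the higher calls. At an unadjusted p under 0.05 there were 3383 lower and 53 higher peaks. The last peak inside the threshold lay in distal DNA annotated to Wdr1, an actin filament disassembly factor, at -0.66 ± 0.24 (the ± throughout is the standard error that the authors deposited). The first outside it lay near a promoter of Cux1, a homeobox factor, at -0.54 ± 0.20.

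Chromosome 5 had the lowest median of the 19 autosomes. Chromosome 17 came next in the authors' deposited table, with a median of -0.43 and 89.8% of its tested peaks below 0, and had 704 lower and 16 higher calls. Chromosome 12 lay on the other side, with a median of 0.53, 10.7% of tested peaks below 0, 52 lower and 774 higher calls. The interquartile range of chromosome 5 was 0.43, and those of the other autosomes ran between 0.40 and 1.18. Its median count of 25.3, median width of 2261 bp and 123 peaks per Mb lay inside the ranges of the other autosomes, which were 24.1 to 28.1, 2001 to 2311 bp and 45.3 to 166 peaks per Mb.

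**Figure D1:**
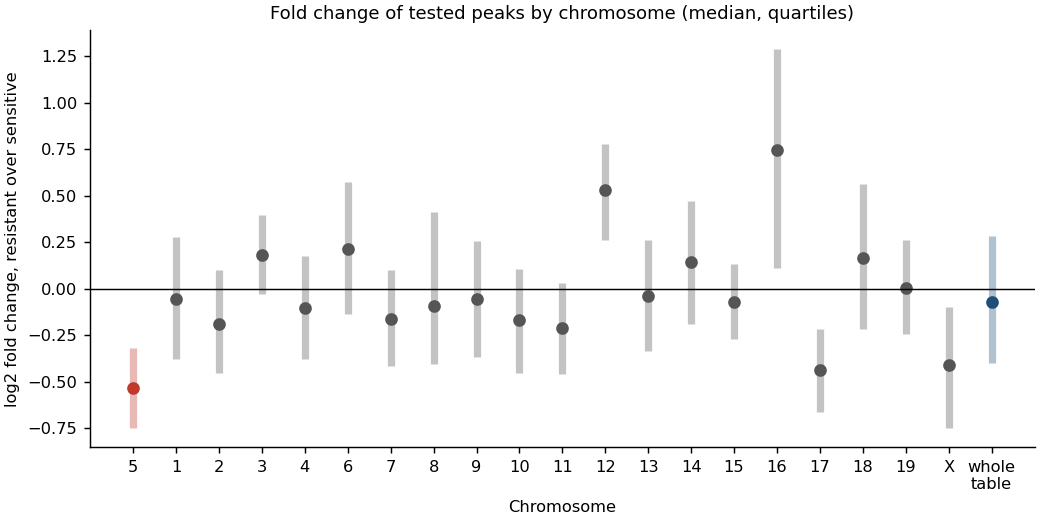
Median (point) and quartiles (bar) of the log2 fold change, resistant over sensitive, of tested peaks on each chromosome and over the whole table. Chromosome 5, at the left, has the lowest autosomal median, -0.53, and its upper quartile, -0.32, lies below 0; chromosome 17 is next at -0.43 and chromosome 16 is highest at 0.75.

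The lower counts ran along the full length of the chromosome. In 31 windows of 5 Mb, each numbered from the start of the chromosome, 31 medians lay below 0, and so did 31 upper quartiles. The medians ranged from -0.71 in window 13 (60 to 65 Mb) to -0.40 in window 4 (15 to 20 Mb), and 24 of the 31 lay within 0.1 of the chromosome's own median. Their standard deviation was 0.076, the sixth smallest of 19 autosomes, whose other values ran between 0.046 and 0.997. Between 85.6% and 98.3% of the tested peaks in a window lay below 0. Within windows the fold changes had standard deviations of 0.28 to 0.51, and the median deposited error of a peak was 0.33 to 0.42.

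Lower calls were found in 30 windows and higher calls in 9. The window without any call was number 12 (55 to 60 Mb), which had 36 tested peaks and a median of -0.43. The share of lower calls reached 31.4% in window 13, where 58 of 185 tested peaks were called, and 29.2% in window 19 (90 to 95 Mb), where 97 of 332 were. Window 19 holds the CXC chemokines and the EGF family ligands. Across the 31 windows the share of lower calls went with the window median (Spearman's rho -0.90) and with the median count (rho 0.58), and these measures come from the same peaks and libraries. The strongest promoter of window 13 was that of Klf3, a transcriptional repressor, at -0.86 ± 0.13. In window 18 (85 to 90 Mb, median -0.66) it was that of Ythdc1, a nuclear reader of methylated adenosine in RNA, at -1.43 ± 0.18, and in window 9 (40 to 45 Mb, median -0.65) that of Prom1, which encodes the membrane protein CD133, at -1.25 ± 0.18, all 3 called lower in the authors' deposited table. At the high end, the Sema3c promoter in window 4 was still called lower, at -0.95 ± 0.19, and that of Steap2, a metalloreductase, in window 2 (5 to 10 Mb) had -0.15 ± 0.16 and was not called.

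**Figure D2:**
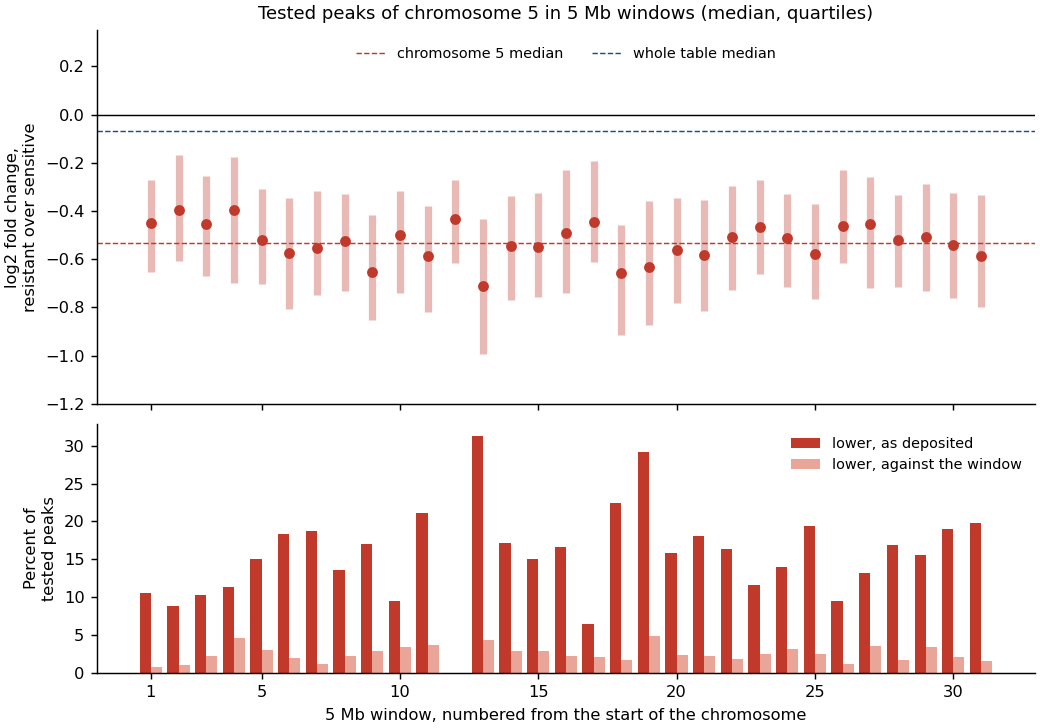
Upper panel: median (point) and quartiles (bar) of the log2 fold change, resistant over sensitive, in the 31 windows of 5 Mb of chromosome 5, with dashed lines at the chromosome's and the whole table's medians. Lower panel: percent of tested peaks in each window called lower as deposited and called lower against the window median. Upper quartiles of 31 windows lie below 0, and the share called as deposited reaches 31.4% in window 13.

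The median of each annotation class lay below 0. Peaks within 1 kb of a start had a median of -0.58 over 1811 tested peaks in the authors' deposited table, and 33.7% were called lower; over the whole table the same class had -0.16 and 11.8%. Distal intergenic peaks of chromosome 5 had a median of -0.52 over 2889 peaks, with 12.1% called lower, beside -0.01 in the whole table. Exons had -0.54, first introns -0.52, later introns -0.52, 3′ UTRs -0.52, 5′ UTRs -0.54 and the stretches just downstream of genes -0.48. The classes differed more in the share called than in the median, and they also differed in depth: the median count was 47.7 and the median error 0.27 within 1 kb of a start, against 22.8 and 0.38 in distal peaks.

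At a matched count the shares called lay closer together. When peaks were split into 5 groups of equal size by the mean count over the whole table, the medians of chromosome 5 were -0.48, -0.50, -0.52, -0.52 and -0.65 from the lowest group to the highest, beside 0.02, 0.00, -0.04, -0.09 and -0.22 in the whole table. The share called lower on chromosome 5 was 1.99%, 3.62%, 5.67%, 19.2% and 57.3%, while the median error was 0.44 in the lowest group and 0.22 in the highest. In the highest count group, promoters within 1 kb had a median of -0.65 with 62.1% called lower, and distal peaks had -0.68 with 56.6%.

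**Figure D3:**
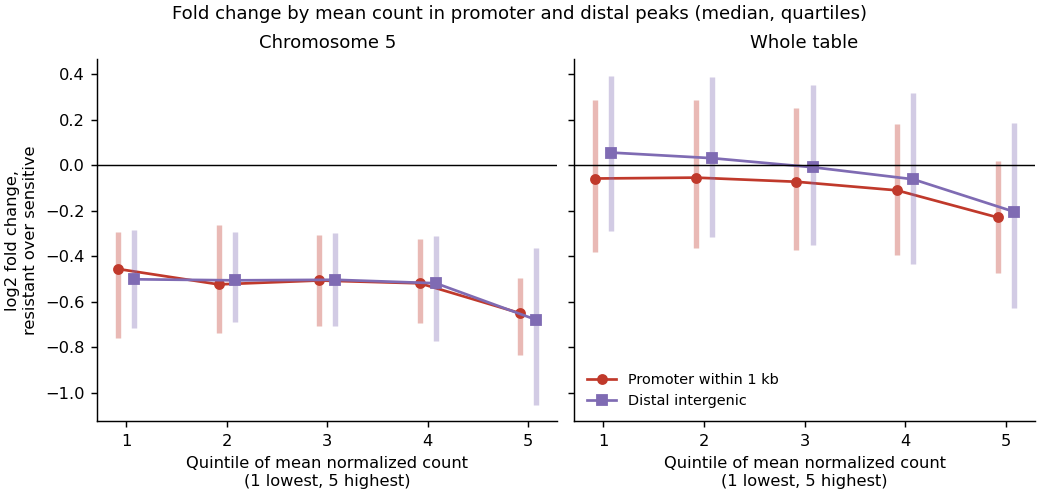
Median (point) and quartiles (bar) of the log2 fold change, resistant over sensitive, by quintile of the mean normalized count, for promoter peaks within 1 kb of a start and distal intergenic peaks, on chromosome 5 (left) and in the whole table (right). On chromosome 5 the medians of both classes lie near -0.5 in the lower 4 quintiles and at -0.65 and -0.68 in the highest.

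Because the whole chromosome was low, each peak was also set against the median of its own 5 Mb window: the window median was subtracted from the fold change, the rest was divided by the deposited error, and the two-sided normal p was adjusted over all 102173 tested peaks. By this measure 246 peaks of chromosome 5 were lower and 115 higher than their window, which is 2.49% and 1.17% of its tested peaks, beside 3.95% and 1.9% over the whole table. The 246 lower ones were all among the authors' 1622 lower calls, 15.2% of which were thus kept. All 17 of the authors' higher calls were kept. Since every window median of chromosome 5 lay below 0, the subtraction moved each of its values up, which by construction takes lower calls away and adds higher ones. The other 98 peaks higher than their window were not called in the authors' deposited table. Of the 115, 114 had a deposited fold change above 0. The difference from the window was at least 2-fold in 93 lower and 60 higher peaks. Around the window medians, the fold changes of chromosome 5 had a standard deviation of 0.37, beside a median error of 0.36.

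Promoters within 1 kb gave 77 of the lower and 14 of the higher peaks, 4.25% and 0.773% of that class on chromosome 5, beside 5.57% and 1.60% in the whole table. Distal intergenic peaks gave 70 and 42, which is 2.42% and 1.45%, beside 3.41% and 1.99%. With 1 promoter peak per gene, the one with the highest count within 3 kb of a start, 1079 genes of chromosome 5 were measured. The authors' deposited table called 496 of these lower (46.0%) and 1 higher, beside 13.9% and 3.58% of all 15494 promoters, and 30 of the 1079 lay above 0. Their median was -0.61, beside -0.18 for all promoters. Against the window 59 were lower and 11 higher, where the whole table had 6.64% and 1.71%.

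Of the 8 lowest peaks by the rule used for naming genes, 7 lay away from promoters. A distal peak near Stim2, a calcium sensor of the endoplasmic reticulum, at chr5:53959780-53963270 had a log2 fold change of -2.56 ± 0.38 in the authors' deposited table. Peaks annotated to Crlf2, a chain of the TSLP receptor, and to Hs3st1, a heparan sulfate sulfotransferase, had -2.48 ± 0.40 and -2.47 ± 0.22. The distance to the start was -130837 bp for the Crlf2 peak and 37425 bp for the Hs3st1 peak. Parm1, a mucin-like membrane protein gene, had -2.39 ± 0.23, Arap2, which encodes a GTPase-activating protein for Arf, -2.35 ± 0.30, and Fam185a -2.29 ± 0.31. The distal peak annotated to Gc, the vitamin D-binding protein, was a strong one with a mean count of 245, at chr5:89273880-89282780, and had -2.24 ± 0.16. Its distance to the Gc start was 152848 bp. Each of the 7 was also lower than its window, with differences of -1.97 to -1.58.

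Among promoters, Cldn3 had the lowest value, -2.19 ± 0.16. Wbscr25 followed with -1.95 ± 0.20, Cldn4 with -1.94 ± 0.16 and Hs3st1 with -1.82 ± 0.21, by the authors' deposited table. Sowahb, Wdfy3, a scaffold of selective autophagy, and Srrm4, a splicing factor of neural microexons, had -1.66 ± 0.24, -1.66 ± 0.24 and -1.65 ± 0.29. Dthd1 had -1.66 ± 0.33, called lower as deposited but not against its window (difference -0.95, adjusted p 0.069). The others were lower than their windows too. The widest tested peak, 33321 bp near D930016D06Rik, had -0.80 ± 0.44 and was not called.

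The 17 higher calls of the authors' deposited table were annotated to 13 genes. An annotation goes by the nearest start, and which gene a peak acts on was not tested. Distal peaks annotated to Alox5ap, the arachidonate 5-lipoxygenase activating protein, and Usp46, a deubiquitinase, had 1.53 ± 0.33 and 1.53 ± 0.28. Their distances to those starts were 32415 and 146038 bp. A peak in a later intron, whose nearest start is that of Mir701, had 1.27 ± 0.27.

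Cyth3, an exchange factor for Arf GTPases, gave 4 of the 17: the promoter peak at chr5:143636400-143643790 had 1.20 ± 0.16, and 3 further peaks of the gene had 0.90, 0.90 and 0.76. A peak of the exon class annotated to Flt1, a VEGF receptor, had 1.06 ± 0.28. Its distance to that start was -21309 bp, so the exon may not be one of Flt1.

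The remaining higher calls in the authors' deposited table lay mostly in introns or distal DNA. Peaks annotated to Gsap and to Foxk1, a forkhead factor, had 1.25 ± 0.44 and 1.20 ± 0.41. A distal peak annotated to Fzd1, a WNT receptor, had 0.97 ± 0.27 and lay 226425 bp from that start. Peaks annotated to Scarb1, a lipoprotein receptor, and Tpst1, a protein tyrosine sulfotransferase, had 0.93 ± 0.34 and 0.86 ± 0.28. An intron peak annotated to Lrrc8d, a subunit of a volume-regulated anion channel, had 0.76 ± 0.27. The Lrrc8d promoter went the other way, at -1.18, and was lower than its window, with a difference of -0.67. A distal peak annotated to Lnx1, a ubiquitin ligase, had 0.63 ± 0.19. Annotated to Tgfbr3, the TGF-beta co-receptor betaglycan, were a peak 1 to 2 kb from a start at 0.84 ± 0.27 and an intron peak at 0.75 ± 0.20. Naming every higher call was decided after their values were seen.

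Differences from the window median were weakly alike between tested peaks that lay close together. With window medians subtracted, Pearson's r between peaks of chromosome 5 less than 5 kb apart was 0.21 over 3225 pairs, beside 0.32 on the other autosomes. It was 0.22 at 5 to 10 kb, 0.17 at 10 to 20 kb, 0.11 at 20 to 50 kb and 0.07 at 50 to 100 kb on chromosome 5, and 0.01 at 200 to 500 kb. The pairs share peaks and libraries, so r is a description.

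**Figure D4:**
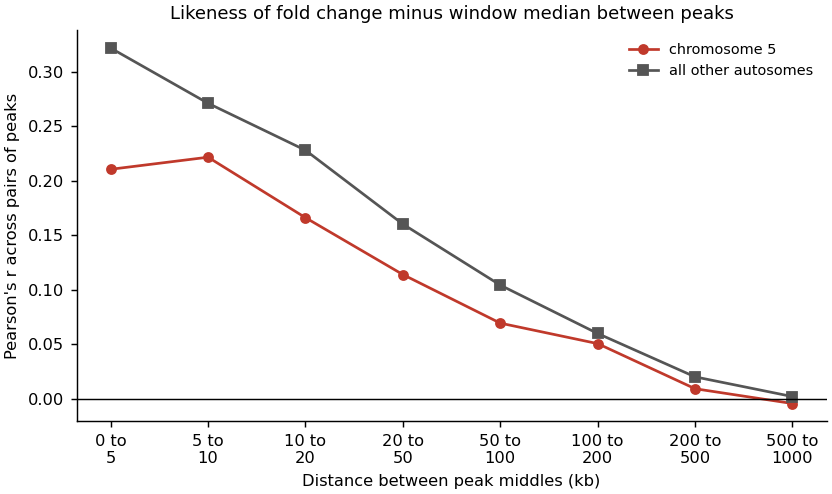
Pearson's r between the log2 fold changes of pairs of peaks, each minus its 5 Mb window median, by the distance between the peaks in kb, on chromosome 5 and on all other autosomes. On chromosome 5 r is 0.21 below 5 kb and near 0 beyond 200 kb.

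Called peaks, lower or higher than their window, were therefore joined into groups where the gap between neighbours was at most 50 kb, a rule chosen after the values were seen. The 361 peaks formed 230 groups, of which 161 held a single peak and 27 held 3 or more. Of the 27, 16 held lower peaks only, 6 higher peaks only and 5 both. Each group starts and ends at a called peak, so the share of its tested peaks that were called is raised by construction. Over the whole chromosome 2.49% of tested peaks were lower and 1.17% higher than their window.

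The claudin locus was the group with the largest number of lower peaks. Between chr5:134931700 and chr5:135013680, 9 of 12 tested peaks were lower than the window, and 0 were higher. Against the 20 nearest peaks that belong to other genes (their median fold change), which here include peaks of the same group, 4 of the 9 stayed lower: the promoters of Cldn4, Cldn3 and Wbscr25 and a distal peak between the claudins. The 9 ran through the promoters of Mettl27, Cldn4, Cldn3, Wbscr25 and Abhd11, with differences from the window of -0.69 to -1.74. The Cldn3 promoter, whose peak at chr5:134980500-134994180 spans 13681 bp and had a mean count of 360, lay at the low end, at -2.19 as deposited. Distal peaks between the claudins took part: that at chr5:134962890-134971980 had -1.87 ± 0.17 and that at chr5:134953470-134962200 had -1.15 ± 0.17 in the authors' deposited table. Cldn13, in the same window, had a promoter peak with -0.31 ± 0.33, not called and 0.14 above the window median.

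Other groups of 5 or more lower peaks lay at Lmtk2 and at the chemokines. Around Lmtk2, a membrane kinase gene, and Bhlha15, a factor of secretory cells also called Mist1, 5 of 17 tested peaks were lower than the window, the lowest at -2.05 ± 0.21 as deposited, and 2 of the 5 stayed lower against the 20 nearest peaks of other genes. From Rassf6, a Ras association domain gene, through Cxcl5 to Cxcl3, 5 of 27 were lower than the window and 1 of the 5 against the 20 nearest peaks. A distal peak at chr5:90725690-90732640, annotated to Cxcl5, was the lowest of these, and the 1 that stayed, with -1.60 ± 0.21 in the authors' deposited table.

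Higher peaks formed groups of their own at Tgfbr3 and Cyth3. From Cdc7, a replication kinase gene, to Tgfbr3, 10 of 27 tested peaks over 216 kb were higher than the window, by 0.79 to 1.35 on the log2 scale, and 0 were lower. As deposited the 10 had 0.29 to 0.84, and 2 of them were called; against the 20 nearest peaks of other genes 6 stayed higher. At Cyth3, 6 of 10 tested peaks between chr5:143625160 and chr5:143681020 were higher than the window, by 1.23 to 1.71; 4 were called as deposited, and 4 stayed higher against the 20 nearest peaks. A promoter peak of Cyth3 just before this stretch at chr5:143620660-143623740, had -0.44 ± 0.24 and lay 0.07 above the window median.

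Lower and higher peaks also met within groups. Near Foxk1 2 peaks were lower and 4 higher than the window, and at Mad1l1, a spindle checkpoint gene, 3 and 2. At Scarb1 the promoter peak had -1.40 ± 0.30 and a peak in the 3′ UTR 0.08 ± 0.17 in the authors' deposited table.

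Of the 109 genes in 17 lists whose promoters were measured, the authors' DESeq2 test called 49 lower and 0 higher. Against the window 8 were lower and 2 higher. With an unadjusted p under 0.05 in that table, 67 were lower and 0 higher. The lists were chosen with earlier results of these data known, and their counts support nothing. All promoters of chromosome 5 had a median of -0.61 and 46.0% lower calls, which is the level to read each list against.

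The CXC chemokines form a cluster of small secreted attractants. Of 9 measured promoters, the authors' deposited table called 5 lower and 0 higher, with a median of -0.72. The neutrophil attractants Cxcl15, Cxcl3, Cxcl2 and Cxcl5 were called lower, at -1.25 ± 0.24, -1.22 ± 0.17, -1.09 ± 0.17 and -0.89 ± 0.15, and Cxcl1 had -0.48 ± 0.19, not called. Of the T cell attractants induced by interferon, Cxcl10 fell by 0.72 ± 0.25, and Cxcl9 and Cxcl11 had -0.58 ± 0.45 and -0.16 ± 0.19. The platelet factor gene Pf4 had -0.44 ± 0.41. Cxcl3 alone was lower than its window, with a difference of -0.58 (adjusted p 0.0118), and not against its 20 nearest peaks of other genes (-0.40, adjusted p 0.18). Cxcl13 and Ppbp had no tested promoter peak.

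The EGF family ligands, which bind EGF receptors, sit beside the chemokines, and 3 of 4 were called lower by the authors' deposited table. Epgn fell by 1.40 ± 0.33, Btc fell by 0.93 ± 0.19 and Areg fell by 0.64 ± 0.23, while Ereg had -0.27 ± 0.15 and was not called. None of the 4 passed against the window, whose median was -0.63, and Epgn was lower than its 20 nearest peaks of other genes (-0.98, adjusted p 0.0494).

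Of 5 claudins on the chromosome, Cldn3 and Cldn4 were called lower. Cldn12, Cldn13 and Cldn15 had -0.49 ± 0.20, -0.31 ± 0.33 and -0.31 ± 0.39 in the authors' deposited table, and were not called.

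Epithelial lineage genes had the lowest median among the lists with more than 1 measured gene, -1.07, with 8 of 10 promoters called lower. Slc34a2, a phosphate transporter of alveolar type II cells, had -1.08 ± 0.15, and Prom1 -1.25 ± 0.18, and both were also lower than their windows (adjusted p 0.0222 and 0.0229), though not against the 20 nearest peaks (adjusted p 0.0689 and 0.51). Hopx, which marks alveolar type I cells, fell by 1.00 ± 0.19. The gut and pancreas factors Cdx2 and Pdx1 were lower at -1.06 ± 0.22 and -0.64 ± 0.20, and the airway trypsin-like protease genes Tmprss11d, Tmprss11e and Tmprss11g at -1.44 ± 0.40, -1.29 ± 0.27 and -1.45 ± 0.45, all from the authors' deposited table. Shh, a morphogen gene, had -0.96 ± 0.37 and was not called.

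Epithelial genes of other chromosomes were low as well, by deposited values that were not set against their windows. Promoters of Epcam, Cdh1, Krt8, Krt18 and Krt19 were lower in resistant organoids in 5 of 5 cases in the authors' deposited table, at -1.54, -1.05, -1.03, -1.14 and -1.63, and Nkx2-1 and Sftpb had -0.93 and -0.89. Of all promoters 13.9% were called lower and 3.58% higher. Among promoter peaks within 1 kb in the highest count group of the whole table, 19.3% were called lower. Of the fibroblast genes, Pdgfrb was higher, at 1.64 ± 0.36, and Col1a1 had -0.01 ± 0.26. The part of these genes in the chromosome 5 values was not tested.

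Interferon effectors of chromosome 5 include the Oas enzymes, which sense double-stranded RNA, and guanylate-binding proteins. The authors' deposited table called 6 of 10 measured promoters lower and 0 higher, with a median of -0.89. Oasl1 fell by 1.37 ± 0.21 and lay below its window with a difference of -0.91 (adjusted p 5.9e-04) and below its 20 nearest peaks with -0.77 (adjusted p 0.0061). Oas1a, Oas1c, Oasl2, Oas3 and Oas2 were lower at -1.42, -1.29, -1.05, -1.01 and -0.77. Gbp6, Gbp10 and Gbp11 had -0.74, -0.59 and -0.29 and Oas1g -0.34, not called. These genes have close copies beside them, so reads may be shared between them.

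Receptor tyrosine kinases had a median of -0.57, with 3 of 8 called lower. Kit, Flt3 and Fgfrl1 were lower at -0.99 ± 0.32, -0.80 ± 0.22 and -0.62 ± 0.19 in the authors' deposited table. The promoter of Pdgfra, a receptor typical of mesenchymal cells, had 0.04 ± 0.19, which was 0.54 above its window (adjusted p 0.061). Against its 20 nearest peaks of other genes the difference was 0.38 (adjusted p 0.31). At Lnx1, in the window before it (70 to 75 Mb), 3 peaks were higher than that window, with 0.20 to 0.63 as deposited. Of the 3, 2 stayed higher against the 20 nearest peaks. The Flt1 promoter had -0.35 ± 0.22, unlike the called peak of the exon class that is annotated to Flt1 from a distance.

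Matrix genes had 3 of 17 called lower and a median of -0.35, and 11 of the 17 lay above their window median. Antxr2, a receptor for matrix and anthrax toxin, and Adamts3, a procollagen peptidase, were lower at -1.09 ± 0.18 and -0.95 ± 0.31 by the authors' deposited table. Pcolce, an enhancer of procollagen processing, had 0.13 ± 0.17, and Emilin1, a glycoprotein of elastic fibres, 0.13 ± 0.20, and these were the 2 list promoters higher than their window, by 0.65 (adjusted p 0.0035) and 0.68 (adjusted p 0.0147). The same 2 were higher than their 20 nearest peaks of other genes, by 0.68 and 0.81. Spp1 (osteopontin), Eln (elastin) and Sod3 had -0.32 ± 0.21, -0.40 ± 0.32 and 0.03 ± 0.34.

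Growth factors had Bmp3 and Pdgfa called lower of 4 measured, at -1.21 ± 0.21 and -0.50 ± 0.13, and guidance cues Sema3c and Sema3e of 6, at -0.95 ± 0.19 and -0.94 ± 0.22, in the authors' deposited table. Frizzled and WNT genes had 0 calls of 3, and 0 with an unadjusted p under 0.05, with Fzd1 at -0.18 ± 0.19, Ctbp1 at -0.22 ± 0.19 and Fzd9 at -0.40 ± 0.23.

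Genes of general function were low as well. Of 8 housekeeping promoters 5 were called lower, with a median of -0.53, by the authors' deposited table: among them the ribosomal genes Rpl21, Rpl5 and Rpl9 had -0.66 ± 0.19, -0.63 ± 0.22 and -0.56 ± 0.17, and the transport GTPase gene Ran had -0.51 ± 0.17. None departed from its window. Cytoskeleton genes had 4 of 9 called, among them Rac1 at -0.67 ± 0.21, Arpc1b at -0.54 ± 0.16 and Limk1 at -0.61 ± 0.20, with a median of -0.50. Of 4 cell cycle and drug efflux genes, Cdk14 fell by 0.83 ± 0.17 and Abcb1a, a drug efflux pump, fell by 0.66 ± 0.24, and Cdk6 had -0.54 ± 0.20 and was not called.

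Endothelial and haematopoietic markers were spread around the chromosome's level. Endothelial markers had 0 of 3 called in the authors' DESeq2 test, 1 with an unadjusted p under 0.05, and a median of -0.48. Haematopoietic markers had 4 of 11 called lower, Ncf1, Bst1, Tec and Flt3, and a median of -0.49 in the authors' deposited table, with mean counts that had a median of 53.1. Of 4 fibroblast markers Pdgfra alone was measured, and of 3 hepatocyte markers Afp, which fell by 1.57 ± 0.31. None of these lists had a higher call.

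**Figure D5:**
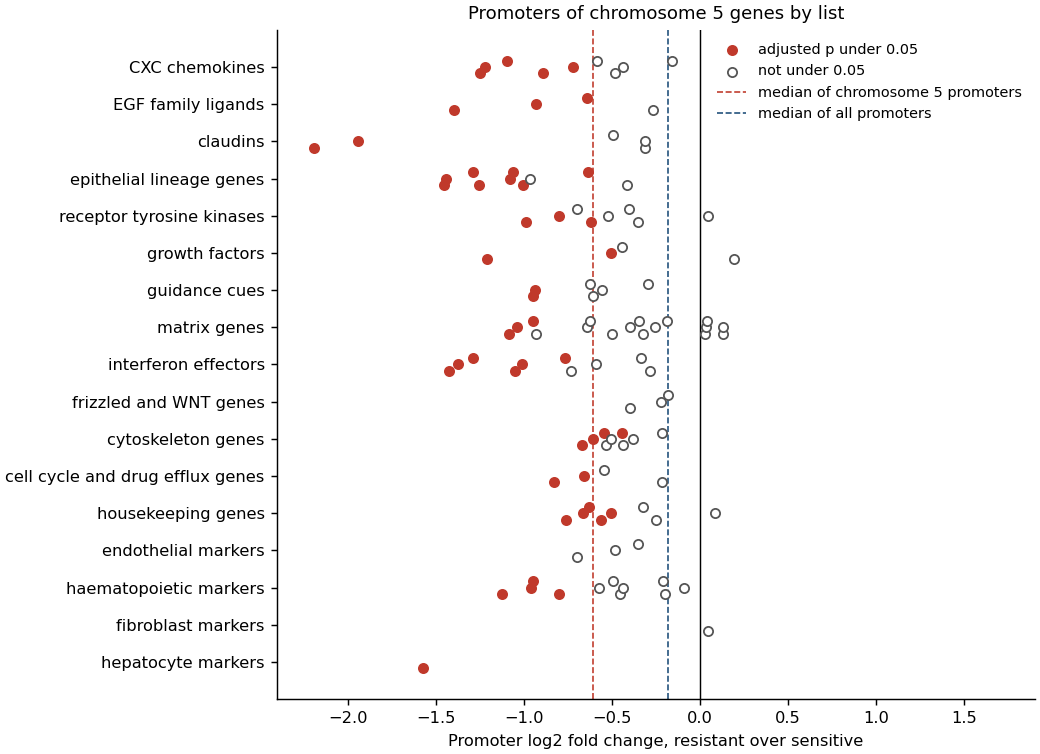
Log2 fold change, resistant over sensitive, of the promoter peaks of chromosome 5 genes in 17 lists; filled points have an adjusted p under 0.05 and open points do not, and dashed lines mark the medians of all chromosome 5 promoters, -0.61, and of all promoters, -0.18. No filled point lies above 0. Cldn3 and Cldn4 are the lowest points, and epithelial lineage genes have the lowest median (not drawn) among the lists with more than 1 measured gene.

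The promoter letters shown above were counted over the chromosome. RefSeq gave a promoter for 886 of the 1079 genes, and for 582 the 250 bases lay inside the peak. The E-box CACCTG, a core that repressors of the Snail and Zeb families are known to bind, was present in 15 of 35 promoters lower than their window (42.9%), in 1 of 3 higher ones and in 80 of the 544 others (14.7%). All RefSeq promoters of this length held it in 17.2%. Among the 15 were Cldn4, Sowahb and Prom1, and, chosen after their values were seen, Msx1, Rassf6 and Lmtk2; Cldn3 and Hs3st1 had none. Against the 20 nearest peaks, 12 of 33 lower promoters held it (36.4%) and 84 of 549 others (15.3%). On the other chromosomes it was present in 149 of 514 promoters lower than their window (29.0%), 7 of 106 higher ones (6.6%) and 1089 of 7235 others (15.1%).

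The other motifs were counted in the same way. AP-1 was present in 4 of the 35 (11.4%) and 27 of the 544 (4.96%), beside 6.75% of all RefSeq promoters. The GC box was present in 19 of 35 (54.3%) and 342 of 544 (62.9%), beside 32.7%. Against the 20 nearest peaks the order of the GC box shares turned: 25 of 33 lower promoters held it (75.8%), and 337 of 549 others (61.4%). Any E-box (CANNTG), which includes every CACCTG, was present in 29 of 35 (82.9%) and 310 of 544 (57.0%), beside 66.2%. The median GC content of the 250 bases was 61.6% in the 35 and in the 544, but the median number of CpG was 11 in the 35 and 17 in the 544. Across the 582 promoters GC content had a Spearman's rho of -0.02 with the fold change. A match is a run of letters and no test was made of these shares.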

How the data were processed

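ATAC-seq was done on 3 libraries labelled resistant and 3 labelled sensitive, and nothing else was measured. Per the submitters' processing notes the build was mm10 and the tools, with no role stated, were DESeq2 1.26.0 in R 3.6.1, ChIPseeker 1.22.1, featureCounts, deepTools, GATK 4.1.3, SAMtools 1.8 and Bowtie2 2.2.1. How peaks were called, whether duplicates were removed and whether reads were shifted for the transposase is not given in the sources used here. Kept duplicates would make errors look smaller. For each peak the authors deposited a signal, the mean normalized count over libraries. They also deposited a log2 fold change with its error, a score (the Wald statistic), the p-value and the adjusted p-value, and the width and distance to the nearest start in bp. The 6 columns of values per library match no sample label and were not used, so depth per library was not analysed here, and the fits of counts per library were not run. The deposited adjusted p was recomputed as a Benjamini-Hochberg value over 102173 peaks; the other 112241, nearly all under a mean count of 14.7, have none.

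Peaks of chromosome 5 were summarised over the chromosome, in 5 Mb windows with at least 20 tested peaks, by annotation class and by quintile of mean count. The window comparison subtracts the median of the window and adds no error for it. Its calculation was run on simulated data with independent noise between peaks and a flat shift per chromosome. Fold changes here were weakly alike between near peaks and varied with count, so that run does not show how many window calls are false. Work was done in Python 3.11.15 with pandas 2.3.3, numpy 2.4.6 and scipy 1.17.1. The 1317 of 1319 gene identifiers of chromosome 5 found in RefSeq, and all sequences, use GRCm38.p6, the assembly of mm10; 25 peaks took their symbol from RefSeq because a spreadsheet had turned it into a date or left it empty. Named genes are, among tested peaks above the median count, the 8 called peaks and 8 called promoters that changed most in each direction (1 per gene, predicted genes left out), up to 3 promoters per list with the smallest p, all measured chemokines, EGF ligands and claudins, the widest tested peak, and the strongest promoters of the extreme windows; others were added after their values were seen. The members and lists were chosen with earlier results of these data known. Some items are not reported here.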

Additional observations from a re-analysis of the deposited data

How the results depend on the processing

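The median of the chromosome stayed below 0 under each alternative tried, at -0.65 with a mean count of at least 50, where the lowest window had -1.05. At that count 5′ UTRs had -0.42, distal peaks -0.67, first introns -0.73 and promoters at 2 to 3 kb -0.69; with the trend against mean count removed, promoters within 1 kb had -0.44. The 1622 lower calls became 939 among peaks up to 5 kb wide, 1045 with the trend removed, 1026 at an adjusted p under 0.01, 755 at 2-fold and 246 against the window. The 17 higher calls became 11 with no filter on low counts, 11 at a count of 50, 10 up to 5 kb, 29 with the trend removed, 9 at 0.01, 7 at 2-fold and 115 against the window. Alternatives added after the data were seen gave 121 lower than the window up to 5 kb, 137 with the trend removed first and 137 at 0.01, and 61 higher at 0.01. Of 109 list promoters 49 were lower, 8 against the window and 6 against the 20 nearest peaks of other genes, and 0 were higher as deposited and 2 in both alternatives. Called promoters that lay above 0 against the nearest peaks were Areg (0.158), Pdgfa (0.0499), Limk1 (0.0263) and Pxn (0.0059), and against the window Pdgfa (0.0165), Pxn (0.0684) and Arpc1b (0.0003). Apart from what the alternatives leave out or subtract by construction, the cause was not tested. No paired analysis was possible because the columns of values per library carry no sample label, and leaving out a library was not run for the same reason. Counts limit the calls: the share called lower was 1.99% in the lowest quintile of counts and 57.3% in the highest.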

Other observations

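Outside the groups described above, 13 groups of 3 or 4 peaks were lower than their window with no higher peak among them. At Chrna9, a nicotinic receptor subunit gene, and 9130230L23Rik, 4 of 6 tested peaks were lower, with deposited log2 fold changes down to -2.49. At Grk3, a receptor kinase gene, 3 of 3 tested peaks were lower, and at Hspb8, a small heat shock protein gene, and Srrm4 4 of 5. At Rbpj, the DNA-binding factor of Notch signalling, 3 of 12 were lower, with -1.71 to -1.44 in the authors' deposited table, and at Msx1, a homeobox gene, 3 of 12, with -1.85 to -1.30. Around Shroom3, which shapes the apex of epithelial cells, 3 of 6 were lower, with -1.80 to -1.26, and around Baiap2l1, an actin regulator at epithelial junctions, 4 of 8. Against the 20 nearest peaks of other genes, all of these lower peaks stayed lower at Chrna9, Hspb8 and Srrm4, Rbpj and Msx1, 2 of 3 at Grk3, 2 of 3 around Shroom3 and 2 of 4 around Baiap2l1. These genes were picked after their values were seen, and the shares within groups are raised by construction, since each group starts and ends at a called peak.

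Groups of higher peaks outside those described were few. At Tnrc18 4 of 13 were higher and at Pitpnm2, a phospholipid transfer protein gene, 3 of 14, with -0.07 to 0.48 in the authors' deposited table. Against the 20 nearest peaks 4 of 4 stayed higher at Tnrc18 and 2 of 3 at Pitpnm2. Of the genes without a tested promoter peak, Baiap2l1 had its strongest peak in the 3′ UTR at -1.39 ± 0.13 with a mean count of 496, and Cxcl13 had a distal peak at -1.50 ± 0.29, both called lower in the authors' deposited table.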
